A study of Mus musculus with 8 samples.

Results

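Chromatin loops at the starts of 7 Krüppel-like factor (KLF) genes, Klf3, Klf4, Klf5, Klf6, Klf7, Klf10 and Klf13, were described in FOXA1 and HNF4G Hi-ChIP of mouse pancreatic cancer cells. Hi-ChIP joins chromatin conformation capture with immunoprecipitation of a chosen protein, so that a loop is a pair of anchors on 1 chromosome found ligated together in chromatin pulled down with that protein. A loop was taken when either anchor lay within 2 kb of an annotated transcription start of a member gene. By this rule 9 of 30542 anchors belonged to the 7 genes, and 245 of 249200 distinct loops ended at them. The cells were untreated, carried the genotype label WT and came from a line from a primary pancreatic tumour of the KPC mouse model (tumour) or from a matched line of a liver metastasis (liver mets). KPC is a genetically engineered model that develops pancreatic cancer, both lines share its background, and each context was 1 cell line. There were 8 samples in 4 groups, FOXA1 liver mets, FOXA1 tumour, HNF4G liver mets and HNF4G tumour, each of 2 replicates that shared 1 loop list. No value per replicate was therefore used, depth was unknown, and there was no test between groups. All intervals are 95% intervals that cover counting error only, and they take each loop as a separate event even where several end at 1 anchor.

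KLF proteins are transcription factors with 3 zinc fingers at the carboxyl end that bind GC-rich and CACCC-type DNA, and they share this DNA-binding domain with the SP proteins. Some members recruit co-repressors and others activate, and the same site can be bound by different members in turn. In gut-derived epithelia Klf4 is known for cell cycle exit and differentiation and Klf5 for proliferation of progenitor cells. FOXA1 is a forkhead factor that can open closed chromatin, and HNF4G is an orphan nuclear receptor of endodermal epithelia.

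Sequences are shown from distal partner anchors that stood opposite the KLF starts in all 4 lists. The loops place the whole anchor there, not the printed stretch within it. For each gene the loop in all 4 lists with the highest median value was taken among partners without an annotated start, and 120 bases were printed around the match to a FOXA core nearest to the partner's midpoint. Coordinates are those of mm10 (GRCm38), counted from 1, and none of the printed stretches overlapped an annotated exon. Capitals mark every match, on either strand, to the FOXA cores TGTTTAC and TATTTAC, the HNF4 words CAAAGTCCA and CAAAGTTCA, the GC box CCCCGCCC or the CACC box CCACACCC. The Klf13 partner chosen in this way, an intronic anchor of Klf13 itself, held no FOXA core and is not printed.
Klf3 partner, chr5:64864855-64864974, plus strand: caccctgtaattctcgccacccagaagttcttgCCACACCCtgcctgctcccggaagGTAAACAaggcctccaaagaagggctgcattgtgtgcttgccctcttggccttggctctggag
Klf4 partner, chr4:55652175-55652294, plus strand: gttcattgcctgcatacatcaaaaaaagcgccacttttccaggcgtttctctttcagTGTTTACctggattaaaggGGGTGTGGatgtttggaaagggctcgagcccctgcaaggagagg
Klf5 partner, chr14:99129179-99129298, plus strand: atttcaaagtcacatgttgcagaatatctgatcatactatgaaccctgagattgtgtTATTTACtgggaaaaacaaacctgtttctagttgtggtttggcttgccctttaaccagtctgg
Klf6 partner, chr13:5804256-5804375, plus strand: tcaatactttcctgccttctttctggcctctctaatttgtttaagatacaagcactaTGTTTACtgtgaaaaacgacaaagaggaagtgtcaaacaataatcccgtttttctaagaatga
Klf7 partner, chr1:63953901-63954020, plus strand: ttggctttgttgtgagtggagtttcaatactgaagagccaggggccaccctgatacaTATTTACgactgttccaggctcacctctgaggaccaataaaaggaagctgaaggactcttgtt
Klf10 partner, chr15:38467384-38467503, plus strand: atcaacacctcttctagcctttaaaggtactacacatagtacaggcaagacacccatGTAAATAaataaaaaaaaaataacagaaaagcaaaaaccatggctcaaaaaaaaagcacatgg

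The Klf3 and Klf4 stretches each held a CACC box beside the FOXA core, a motif of the kind that KLF proteins bind. The whole Klf3 partner held 3 CACC boxes, and the whole Klf10 partner, 8935 bp wide, held 4 GC boxes and 1 CACC box. Over all partners the motifs stood at shares not far from those at all anchors. Of the 215 partners 56 lay within 2 kb of an annotated start, beside 45.2% of all anchors. Shares at the 16723 anchors without such a start are therefore given too. In midpoint windows the GC box and the FOXA cores stood further away from these than from the shares at all anchors. In 300-base windows at the anchor midpoints, TGTTTAC was found at 6.98% of the 215 partners, 7.74% of all anchors and 9.79% of those without a start. TATTTAC was found at 3.72%, 5.32% and 6.81%. Of the 47 partners joined in all 4 lists, 5 held TGTTTAC (10.6%) and 3 held TATTTAC (6.38%). CAAAGTCCA was found at 0 of the 215 partners and at 0.599% of all anchors, and CAAAGTTCA at 2 of the partners (0.930%) and at 0.550% of all anchors. At anchors without a start these HNF4 words were found at 0.646% and 0.670%. The GC box stood at 6.05% of partners, against 7.85% of all anchors and 2.48% of those without a start. For the CACC box the shares were 4.65%, 4.04% and 4.34%. Counted over whole anchors, TGTTTAC had 0.212 matches per kb at partners, 0.179 at all anchors and 0.205 at those without a start. TATTTAC had 0.141, 0.163 and 0.190, the GC box 0.131, 0.205 and 0.0694, and the CACC box 0.106, 0.120 and 0.120. For TGTTTAC partners were thus lowest in the windows and highest over whole anchors. A match is a string of letters in a window and says nothing of binding.

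At the other end of the loops, promoter sequences were taken from RefSeq (GRCm38.p6), which gave an entry for Klf3, Klf4, Klf6, Klf7 and Klf13. No entry was used for Klf5 and Klf10. The GC box was found in 3 of the 5 entries, Klf3, Klf4 and Klf13, and in 17.6% of all 32851 promoters. None of the 5 held either FOXA core, either HNF4 word or the CACC box, which were found in 3.65%, 3.04%, 0.475%, 0.390% and 3.56% of all promoters. The stretches before the first exon of Klf4 and Klf13 are printed on the strand of the gene to show their 4 and 2 GC boxes in capitals, of which the first pair at Klf4 overlaps.
Klf4 promoter, chr4:55532467-55532725, minus strand: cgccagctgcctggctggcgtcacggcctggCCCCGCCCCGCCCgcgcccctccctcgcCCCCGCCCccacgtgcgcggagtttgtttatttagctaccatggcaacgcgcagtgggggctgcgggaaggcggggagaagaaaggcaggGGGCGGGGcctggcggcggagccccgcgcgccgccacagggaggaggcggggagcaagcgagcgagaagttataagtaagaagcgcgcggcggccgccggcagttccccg
Klf13 promoter, chr7:63938916-63939165, minus strand: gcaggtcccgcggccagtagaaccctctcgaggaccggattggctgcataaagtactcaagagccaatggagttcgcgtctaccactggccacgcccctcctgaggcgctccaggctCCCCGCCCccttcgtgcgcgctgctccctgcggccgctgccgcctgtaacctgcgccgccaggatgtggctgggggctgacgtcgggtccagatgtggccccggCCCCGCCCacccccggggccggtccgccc

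The anchors at the KLF starts were wide. Their widths ran from 2523 to 12041 bp, against a median of 2335 bp over all anchors, and only 40 anchors (0.131%) were wider than that of Klf3. The Klf3 anchor (chr5:64801896-64813936) covered the gene's start on the plus strand, and the starts of the noncoding genes C230096K16Rik and Gm20033 were within 2 kb of it. Klf4 (chr4:55529603-55535784), Klf7 (chr1:64118162-64123001) and Klf10 (chr15:38297170-38303192), all on the minus strand, had 1 anchor each that no other gene start shared. The Klf6 anchor (chr13:5859976-5864354, plus strand) also lay at the start of 1700016G22Rik. Klf5, on the plus strand, had 2 anchors, chr14:99293148-99300008 over its start, which it shared with Gm4412, and chr14:99300703-99303225, 1549 bp from the nearest start. Klf13, on the minus strand, also had 2, chr7:63923785-63928201 and chr7:63936430-63941217, each over a different annotated start. Loops of a KLF start and of another start at the same anchor cannot be told apart.

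The 7 genes together had 169 loops in FOXA1 liver mets, 161 in FOXA1 tumour, 102 in HNF4G liver mets and 105 in HNF4G tumour, out of 125623, 104136, 78098 and 76323 listed loops. Klf3, a repressor that works through CtBP co-repressors, had the most loops in every list, with 37, 41, 25 and 30 in that order of lists. These numbers were above those of 95.3% to 98.0% of the 10802 protein-coding genes with an anchor, whose medians were 7, 6, 5 and 5 loops. Klf5 had 27, 25, 11 and 11 loops, and Klf13, known from T cells as an activator of the chemokine gene Ccl5, had 26, 17, 18 and 17. For Klf6, an early-response gene that is often counted among tumour suppressors, the numbers were 23, 21, 13 and 8. Klf7, best known from developing neurons, had 20, 22, 12 and 16. Klf10, an early target of TGF-beta signalling, had 21, 18, 14 and 12, and Klf4 had 15, 17, 9 and 11. Every member was above the coding-gene median in every list. The coding genes were not matched to the members for anchor width or number of anchors, and the numbers of Klf5 and Klf13 sum 2 anchors each. In the plot of loop numbers the exact Poisson interval of Klf3 lay clear of that of at least 1 other member in every list except HNF4G liver mets, and the intervals of the other genes overlapped within each list.

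**Figure D1:**
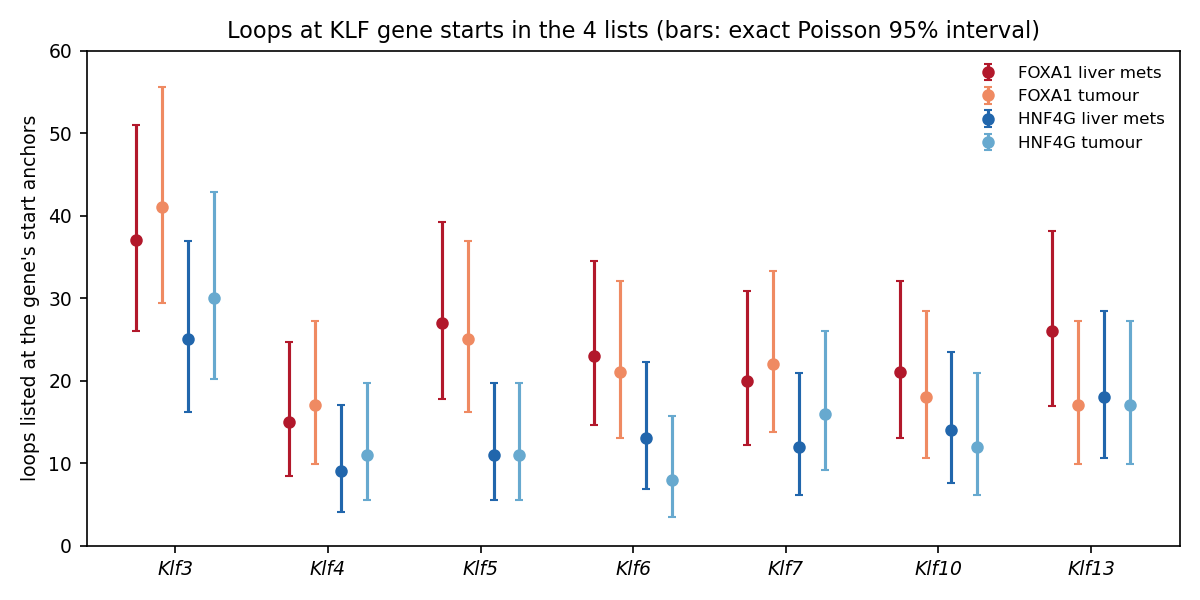
Loops listed at the start anchors of each KLF gene (y axis, number of loops) in the 4 lists (colours). Points are the listed numbers and bars are exact Poisson 95% intervals. Klf3 had the highest point in every list (37, 41, 25 and 30), and the FOXA1 points of Klf5 (27 and 25) and Klf6 (23 and 21) lay above their HNF4G points (11 and 11, 13 and 8).

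To ask whether looping at the KLF genes differed between the metastatic and the primary context, loop numbers were compared within each factor. With FOXA1 the liver mets to tumour ratio over the 7 genes was 1.05 (0.841 to 1.31), and 0.870 (0.697 to 1.09) once each number was divided by the size of its list. With HNF4G it was 0.971 (0.732 to 1.29), and 0.949 (0.716 to 1.26) after division. Neither interval excluded 1. The FOXA1 ratio divided by the HNF4G ratio was 1.08 (0.763 to 1.53), so a difference between the factors in this respect was not detectable, and up to 1.53-fold remained within counting error. Gene by gene, the share of the FOXA1 list was 1.5-fold or more higher or lower in liver mets for 0 of the 7 genes, against 11.9% of all 9880 genes with at least 10 loops that were higher and 14.6% that were lower. With HNF4G, Klf6 alone passed 1.5-fold, higher in liver mets with 13 against 8 loops, a ratio of shares of 1.59 (0.610 to 4.42), against 12.9% of all genes higher and 18.9% lower. A single gene of 7 past the fold is near this background. Klf13 had the highest FOXA1 ratio, 26 loops against 17, or 1.53 (0.799 to 3) as listed and 1.27 (0.662 to 2.49) of shares. Its anchor inside the gene had 13 against 7 loops and the anchor over the gene's 5′ end had 14 against 11. At a value of 2 or more Klf13 had 5 against 1.

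Between the factors the numbers followed the length of the lists. The FOXA1 to HNF4G ratio over the 7 genes was 1.53 (1.19 to 1.98) in tumour and 1.66 (1.29 to 2.14) in liver mets. Divided by list size it was 1.12 (0.873 to 1.45) and 1.03 (0.801 to 1.33). The median over the 7 genes of the ratio of shares was 1.10 in tumour and 1.04 in liver mets, beside 0.927 and 0.933 over all genes tested. Klf5 and Klf6 had the highest ratios in tumour. For Klf5, 25 FOXA1 loops against 11 HNF4G loops gave 2.27 (1.08 to 5.12) as listed and 1.67 (0.791 to 3.75) of shares. For Klf6, 21 against 8 gave 2.63 (1.12 to 6.85) and 1.92 (0.819 to 5.02). These 2 genes were the ones past 1.5-fold higher in tumour, where 14.2% of all genes were higher and 20.9% lower. In liver mets Klf5 again passed, with 27 against 11 loops, 2.45 (1.18 to 5.48) as listed and 1.53 (0.733 to 3.41) of shares, and Klf6, with 23 against 13, did not (1.10 of shares). At a value of 2 or more Klf6 had 7 against 1 loop in liver mets. There, too, 14.2% of all genes were higher, and 18.4% were lower. The intervals of the ratios of shares included 1 for every gene in every contrast.

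At Klf5 much of the difference between factors lay at the second anchor, inside the gene. It had 11 and 10 loops in the FOXA1 lists and 1 and 3 in the HNF4G lists, whereas the anchor over the start had 17 and 16 against 10 and 9. The loops of the 2 anchors ran largely to the same places, since 16 of the 23 partners of the first and of the 17 partners of the second were shared when all lists were joined. Counted by partner rather than by loop, Klf5 had 19, 21, 10 and 10 partners in FOXA1 liver mets, FOXA1 tumour, HNF4G liver mets and HNF4G tumour.

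List membership was read next. Of the 245 KLF loops, 94 were in 1 list, 59 in 2, 43 in 3 and 49 in all 4. The share in all 4 lists was 20% (15.5 to 25.5), beside 5.54% of all 181129 distinct loops with a promoter anchor and 9.98% of the loops whose promoter anchor was 4 kb or wider, as all but 1 of the KLF anchors were. The share in 1 list was 38.4% (32.5 to 44.6), beside 65.7% and 57.3%. No background of genes with as many loops is given, and the members were chosen with earlier results of these data known. The genes differed in their share in all 4 lists. Klf7 had 10 of 25 loops in all 4 lists (40%, 23.4 to 59.3) and Klf3 had 16 of 56 (28.6%, 18.4 to 41.5). Klf13 (7 of 35), Klf10 (6 of 31) and Klf6 (5 of 29) followed with 20%, 19.4% and 17.2%. Klf5 had 4 of 41 (9.76%, 3.86 to 22.5), and Klf4 had 1 of 28 (3.57%, 0.633 to 17.7). The interval of Klf7 did not overlap those of Klf5 and Klf4, nor did that of Klf3 overlap that of Klf4, while neighbours in this order did not differ beyond their intervals. The Klf5 share counted both of its anchors. Its second anchor had only 1 loop in HNF4G liver mets, so at most 1 of its loops could be in all 4 lists. No interval was taken for the first anchor alone, and the gap between Klf7 and Klf5 cannot be told apart from this way of counting. Spans differed between these genes too, and sharing by gene was not compared at equal span. Over the lists, median spans were 119 to 131 kb for Klf7 and 244 to 862 kb for Klf4. They were 184 to 425 kb for Klf3 and 179 to 250 kb for Klf5. Without Klf3 the share in all 4 lists was 17.5%, and without Klf4 it was 22.1%, the extremes when each gene was left out. The share depended on what was counted as a loop and as shared. With a value of 2 or more required, 10.9% of KLF loops were in all 4 lists and 50% in 1 list, beside 2.62% and 79.6% of all promoter loops under the same rule. That background was not limited to wide anchors. With 5 kb added to both ends of every anchor, 40% of KLF loops were in all 4 lists. No share of all promoter loops was taken under this rule, and the backgrounds above use exact anchors.

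**Figure D2:**
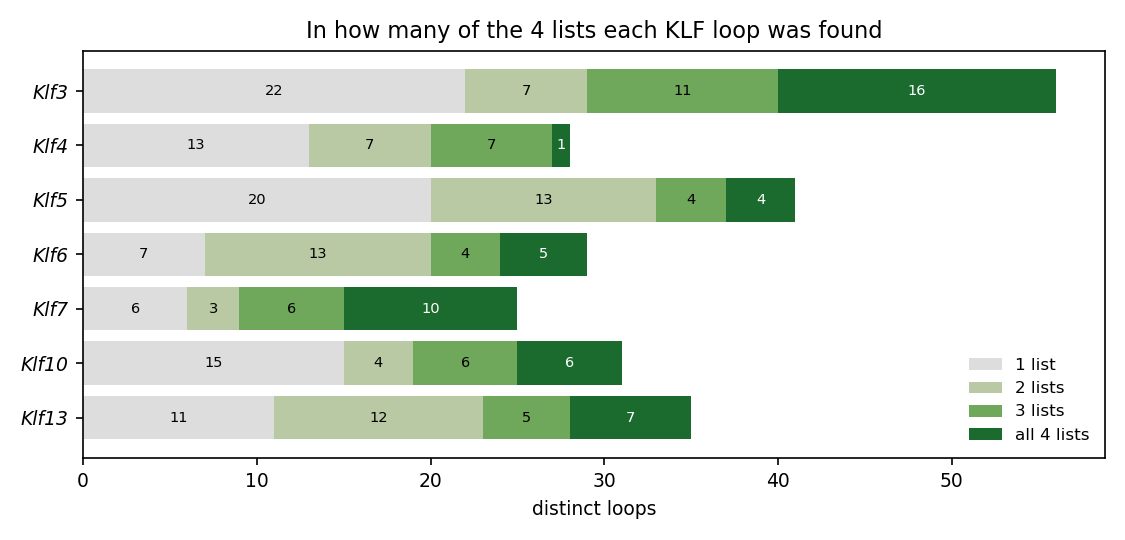
Distinct loops of each KLF gene (x axis, number of loops) split by the number of lists that held them. The dark green segment, loops in all 4 lists, was 16 for Klf3 and 10 for Klf7 but 1 for Klf4, and the light grey segment, loops in 1 list, was largest for Klf3 (22) and Klf5 (20).

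Sharing is strongly tied to the distance between anchors, and so it was read by span. Under 20 kb, 8 of 12 KLF loops were in all 4 lists (66.7%), beside 59.9% of all loops with a promoter anchor of 4 kb or more. From 20 to 100 kb, 9 of 39 were (23.1%), beside 25.1%. Up to 100 kb the KLF loops were thus close to loops of other wide promoter anchors. From 100 to 300 kb, 25 of 78 were in all 4 lists (32.1%), beside 6.69%, and from 300 to 1000 kb, 7 of 89 (7.87%), beside 1.01%. At 1000 kb or more, 0 of 27 were, beside 0.0342%. In the range of 100 to 300 kb the KLF share fell to 24.6% without Klf3 and reached 41.4% without Klf5, the extremes when each gene was left out.

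**Figure D3:**
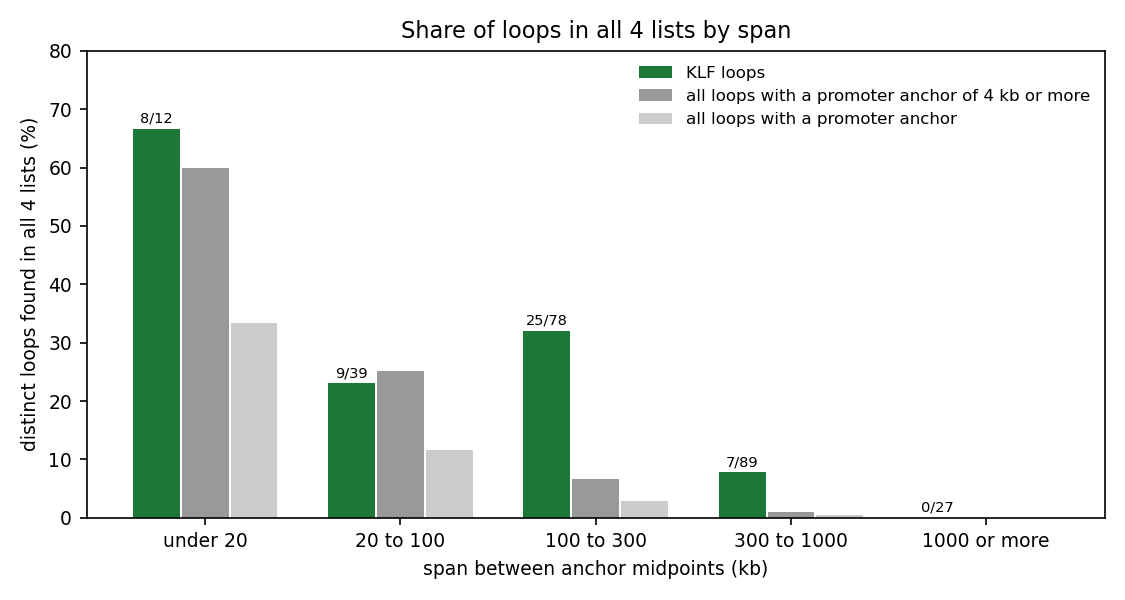
Share of distinct loops found in all 4 lists (y axis, %) by span between anchor midpoints (x axis, kb), for KLF loops (green, with the numbers of loops), loops with a promoter anchor of 4 kb or more (dark grey) and all loops with a promoter anchor (light grey). KLF bars stood above both backgrounds from 100 to 300 kb (32.1% against 6.69% and 2.87%) and from 300 to 1000 kb, and not from 20 to 100 kb (23.1% against 25.1% for wide anchors).

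Between pairs of lists, 109 KLF loops were common to both FOXA1 lists, 64.5% of the liver mets and 67.7% of the tumour loops. For all promoter loops these shares were 34.2% and 40.6%. Both HNF4G lists had 59 in common, 57.8% and 56.2%, beside 34.1% and 33.7%. Most HNF4G loops were FOXA1 loops too. In liver mets 82 loops were in both, 80.4% of the HNF4G and 48.5% of the FOXA1 loops, beside 44.1% and 28.3% of all promoter loops. In tumour 77 were in both, 73.3% and 47.8%, beside 38.4% and 29.6%. All 12 Klf7 loops in HNF4G liver mets were also in FOXA1 liver mets, as were 23 of 25 for Klf3. At Klf4 the HNF4G lists shared 1 loop of 9 in liver mets and 11 in tumour, although its FOXA1 lists shared 10 of 15 and 17. FOXA1 lists alone held 97 of the 245 loops (39.6%) and HNF4G lists alone held 24 (9.80%), beside 47.1% and 26.1% of all promoter loops, so both shares were below the background. Klf5 had 24 of its 41 loops in FOXA1 lists alone, while Klf6 had 14 of 29 and Klf7 7 of 25. An equal number, 56 loops (22.9%), was found in liver mets alone and in tumour alone, beside 38.7% and 33% of all promoter loops. The backgrounds of shared and list-only loops given here were not matched for anchor width or span. Klf3 had 7 in liver mets alone and 17 in tumour alone, and Klf13 had 11 and 4.

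Each listed loop carries a value, read here, from the values alone, as the −log10 of an adjusted p with an upper end of 20. Since tied values differ between lists, equal values in different lists need not mean equal evidence. A value of 2 or more was held by 34.9%, 31.7%, 30.4% and 29.5% of KLF loops in FOXA1 liver mets, FOXA1 tumour, HNF4G liver mets and HNF4G tumour, beside 9.57%, 8.28%, 7.80% and 8.02% of all promoter loops. No such share was taken for wide promoter anchors or at equal span, so the difference cannot be read as a trait of the KLF genes. The top value of 20 was reached by 7, 3, 1 and 1 KLF loops, out of 328, 114, 76 and 111 listed loops at that value. KLF loops were also longer than promoter loops as a whole, with median spans of 217 kb (175 to 267), 213 kb (173 to 250), 167 kb (131 to 197) and 195 kb (162 to 267), against 174, 150, 123 and 142 kb for all promoter loops. They were not longer than loops of like anchors when distinct loops were counted. From 300 to 1000 kb there were 89 of 245 KLF loops, beside 19611 of 58902 loops with a promoter anchor of 4 kb or more. At 1000 kb or more there were 27 and 8781. At 1000 kb or more the value carried little, since 96.6% to 98.4% of all such loops in a list had 1 tied value, as did 12 of 12, 13 of 14, 3 of 4 and 4 of 5 KLF loops. The tied values occurred at shorter spans too. In FOXA1 liver mets 18323 loops held the tied value, while only 12035 spanned 1000 kb or more. Below 1000 kb many KLF values under 2 rose with span, whichever gene they belonged to. In FOXA1 tumour they were 1.49 at a span of 167 kb (Klf5), 1.63 at 195 kb (Klf6), 1.67 at 219 kb (Klf10) and 1.86 at 413 kb (Klf7). Nearer to a start they could be far lower, with 0.0812 to 0.379 for the Klf5 loop 17.1 kb upstream. Being listed, even in all 4 lists, thus need not mean a low adjusted p.

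Most KLF partners were away from coding starts. Of 215 distinct partners, 56 lay within 2 kb of some annotated start and 30 of a protein-coding start, while 146 were outside any coding gene and 100 outside any gene. In the lists, 23.1% (17.4 to 30.0), 27.3% (21 to 34.7), 28.4% (20.6 to 37.8) and 29.5% (21.6 to 38.8) of KLF loops had a promoter anchor as partner. Within 500 kb of the 7 genes, 41 of 167 anchors (24.6%) were promoter anchors, close to these shares. Over all loops, 54.7% to 59.1% of the ends opposite a promoter anchor were promoter anchors, depending on the list. At a value of 2 or more the KLF shares were 25.4%, 19.6%, 16.1% and 25.8%. The map of partner anchors sets out how differently the genes were placed, and each is described in turn. Numbers of joined anchors within 500 kb are given there without a background, since none was taken for other promoters.

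**Figure D4:**
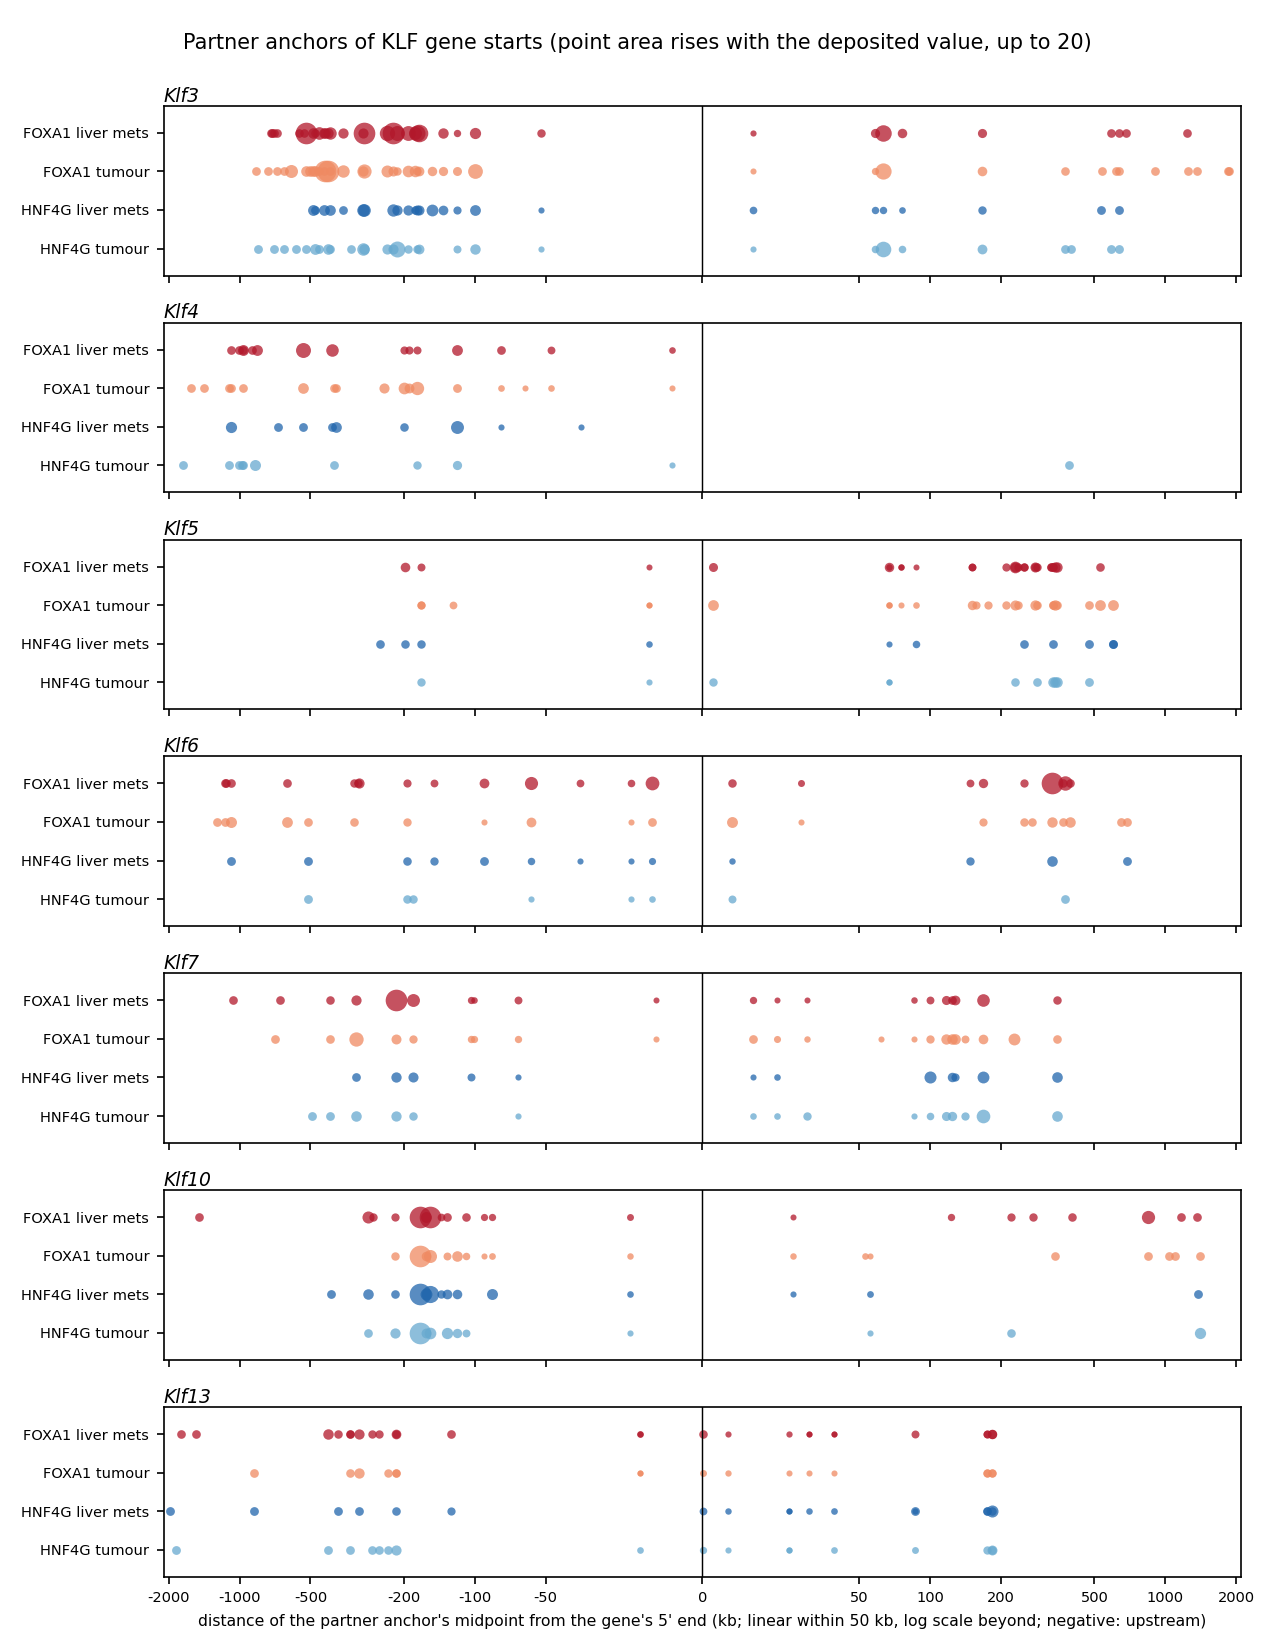
Position of each partner anchor's midpoint relative to the gene's 5′ end (x axis, kb, linear within 50 kb and logarithmic beyond, negative upstream of the gene) for the 7 KLF genes (panels) in the 4 lists (lines and colours). Point area rises with the deposited value up to 20. Klf4 partners were upstream with 1 exception, Klf5 partners mostly downstream, and the largest Klf10 points in all 4 lists stood at 171 kb upstream.

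Klf10 had the only KLF loop with the top value in every list. This loop, to chr15:38466978-38475912, 171 kb upstream with no annotated gene in the anchor, had 20 in FOXA1 liver mets, FOXA1 tumour, HNF4G liver mets and HNF4G tumour alike. Only 26 loops in the whole genome, 24 of them with a promoter anchor, did so. This partner had 19, 16, 14 and 15 loops of its own, and the loop to Klf10 was first by value among them in each list, tied with 1 other in FOXA1 liver mets and in HNF4G tumour. Klf10 was also joined to the neighbouring anchor chr15:38451928-38460019, at the start of the noncoding gene G930009F23Rik, with values of 20, 6.22, 12 and 4.68, and to chr15:38460865-38463421 between them, with 3.92, 2.64, 4.92 and 2.93. These 3 neighbouring anchors, 155 to 171 kb upstream, were thus joined to Klf10 in every list. Nearer to the gene, chr15:38430660-38432627 at 131 kb had 1.87, 1.31, 2.74 and 4.25. The start of Azin1, which encodes the antizyme inhibitor of polyamine metabolism, 218 kb upstream, was joined in all 4 lists too, with values of 1.55, 1.67, 1.81 and 3.23. The longest Klf10 loop with a value of 2 or more ran 1400 kb downstream, at 4.23 in HNF4G tumour and 1.91 in FOXA1 tumour. At a value of 2 or more Klf10 had 5, 4, 7 and 7 loops, so the FOXA1 to HNF4G ratio changed side, from 1.5 to 0.571 in tumour and to 0.714 in liver mets, with intervals that include 1 throughout.

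Klf7 was joined on both sides, with the largest share of loops in all 4 lists. The partner chr1:63952616-63954760, 169 kb downstream and past the gene's end, had values of 5.75, 2.71, 4.89 and 7.02, and the loop to Klf7 was the first by value among this anchor's 14, 7, 10 and 7 loops. Upstream, chr1:64336323-64339814 at 216 kb had 20, 2.99, 3.30 and 3.27, and chr1:64441982-64443654 at 321 kb had 3.20, 7.85, 1.91 and 3.52. The top value in FOXA1 liver mets thus lay at the nearer of these anchors and the highest FOXA1 tumour value at the farther one. Downstream at 345 kb, chr1:63775298-63778808 had 1.70, 1.82, 3.59 and 3.61, and at 124 kb chr1:63996888-63999808 had 1.85, 3.51, 2.53 and 2.43. The partner with the highest HNF4G liver mets value, chr1:64019562-64024026, had 1.26, 1.59, 5.11 and 1.05. Within the introns of Klf7, 2 anchors, 16.3 and 23.7 kb from the start, were joined in all 4 lists. The start of Creb1, the cAMP-responsive activator, was joined at 411 kb in every list except HNF4G liver mets, at 1.77, 1.86 and 1.95. Within 500 kb, 22 of 26 anchors were joined to Klf7 in at least 1 list.

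Klf3 had most of its partners upstream, where 23 of 25 anchors within 500 kb were joined in some list, against 7 of 10 downstream. The upstream loops made up 28 of 37, 28 of 41, 18 of 25 and 21 of 30. From 173 to 299 kb upstream 7 anchors outside coding genes were joined in all 4 lists. Those with the highest median values over the lists were chr5:64507046-64509504 at 295 kb, with 20, 7.70, 5.77 and 3.39, chr5:64586691-64589857 at 215 kb, with 8.82, 1.65, 3.24 and 10.2, chr5:64503828-64505650 at 299 kb, with 3.17, 3.25, 5.63 and 5.63, and chr5:64578793-64581114 at 223 kb, with 20, 3.04, 5.41 and 3.15. The first and last of these had the top value in FOXA1 liver mets, and the others had their highest values with HNF4G. Farther upstream, chr5:64381633-64384225 at 420 kb reached 20 in FOXA1 tumour, with 3.37 in FOXA1 liver mets and 3.62 in HNF4G tumour, and was not listed in HNF4G liver mets. The gene body of Tbc1d1, which encodes a Rab GTPase-activating protein, held the partners of 10 distinct Klf3 loops, with 6, 7, 2 and 5 in the lists, 1 of them in all 4. The longest Klf3 loop with a value of 2 or more ended in an intron of that gene, 606 kb away, at 6.19 in FOXA1 tumour alone. Downstream, chr5:64864090-64869007 at 63.2 kb, the anchor whose sequence is printed above, had 11, 10.5 and 9.63 in FOXA1 liver mets, FOXA1 tumour and HNF4G tumour but 0.95 in HNF4G liver mets. This anchor had 38, 23, 17 and 24 loops, and the loop to Klf3 was first or second by value among them in every list but HNF4G liver mets, where it was number 15. Coding starts joined to Klf3 in all 4 lists were those of Fam114a1 at 167 kb (2.26, 2.66, 1.66 and 2.84) and of Ugdh, the UDP-glucose dehydrogenase gene, at 634 kb (1.85, 1.91, 1.99 and 1.99). In FOXA1 tumour and HNF4G liver mets the Ugdh values were the tied values of long loops, and in the other lists they lay close to them.

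Klf4 was the most one-sided gene. All of its loops ran upstream except 1 in HNF4G tumour, and 13 of the 14 anchors within 500 kb upstream were joined in some list against 1 of 4 downstream. None of the 3 promoter anchors within 500 kb was joined in any list. Of its 28 partners, 25 lay outside coding genes. The single loop in all 4 lists, to chr4:55649793-55653214 at 119 kb, had values of 3.80, 1.98, 6.11 and 2.31, and was first by value among that anchor's loops in both HNF4G lists. The highest value at Klf4 was 8.70 in FOXA1 liver mets, for chr4:56067444-56071581 at 537 kb, which had 3.69 in FOXA1 tumour, 1.99 in HNF4G liver mets and was not listed in HNF4G tumour. In FOXA1 tumour the highest was 6.59, for chr4:55707254-55709118 at 176 kb, beside 1.38 in FOXA1 liver mets and 1.66 in HNF4G tumour. Loops of Klf4 were long, with median spans of 406, 244, 390 and 862 kb and wide intervals (119 to 967 kb in FOXA1 liver mets). In HNF4G tumour the highest value was 3.98, for chr4:56392948-56395815 at 862 kb, in that list alone. The longest with a value of 2 or more spanned 1089 kb, at 4.16 in HNF4G liver mets and at the tied values of 1.87 and 1.91 in the FOXA1 lists.

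Klf5 was joined mainly to the downstream side, with 24 of 27, 20 of 25, 7 of 11 and 9 of 11 loops. All 22 anchors within 500 kb of Klf5, 17 of them downstream, were joined in some list, with no share for other promoters to set beside this. The values of Klf5 loops were modest. The highest was 4.69 in FOXA1 liver mets, from the second anchor to chr14:99528339-99530477 at 231 kb, which had 3.08 in FOXA1 tumour. From the first anchor the same partner was listed at 2.92 in FOXA1 liver mets and 1.76 in HNF4G tumour. The highest HNF4G tumour value, 3.51, was from the second anchor to chr14:99644936-99648677 at 348 kb, which the first anchor joined in the FOXA1 lists (3.32 and 1.84). Loops in all 4 lists started from the first anchor only and ran to chr14:99632034-99633625 at 334 kb (1.71, 1.82, 1.91 and 3.44), chr14:99363315-99367840 at 66.9 kb (2.52, 0.411, 0.146 and 0.171), chr14:99280746-99282518 at 17.1 kb upstream (0.0812, 0.112, 0.379 and 0.156) and an intron of Pibf1 at 169 kb upstream (1.32, 1.49, 1.71 and 1.63). Of the other KLF, SP and comparison genes looked for, only Klf12, a repressor of the same family on chromosome 14, was joined to a member. Its start (chr14:99898445-99901529), 601 kb downstream, was joined to the first Klf5 anchor at 3.76 in FOXA1 tumour and 1.99 in HNF4G liver mets and to the second at 1.99 in HNF4G liver mets. In FOXA1 liver mets and HNF4G tumour this pair was not listed. Both values of 1.99 lay at or next to the tied value of long loops in HNF4G liver mets.

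Klf6 had several loops with their highest value in FOXA1 liver mets. The partner chr13:6190930-6194770, 331 kb downstream, had 20 in FOXA1 liver mets, 3.37 in FOXA1 tumour and 3.56 in HNF4G liver mets, and was not listed in HNF4G tumour. Upstream, chr13:5843626-5846974 at 16.2 kb had 7.13, 1.91, 0.754 and 0.417, and chr13:5801517-5806328 at 57.6 kb had 6.36, 2.82, 0.975 and 0.171. Both were in all 4 lists, with the same order of values. The anchor over the end of the gene, chr13:5868899-5872645, had 1.74, 3.88, 0.306 and 1.33. The remaining loops in all 4 lists were to chr13:5666079-5667549 at 195 kb (1.48, 1.63, 1.77 and 1.74) and chr13:5836792-5840477 at 22.8 kb (1.05, 0.123, 0.146 and 0.171). In HNF4G tumour Klf6 had no loop with a value of 2 or more, and its highest value was 1.98, at 514 kb. The longest loop with a value of 2 or more spanned 1090 kb upstream, at 3.95 in FOXA1 tumour. Of 22 anchors within 500 kb, 19 were joined in FOXA1 liver mets, 14 in FOXA1 tumour, 10 in HNF4G liver mets and 7 in HNF4G tumour.

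Klf13 loops had a promoter partner in 11 of 26, 9 of 17, 8 of 18 and 8 of 17 cases. Partners of both anchors count more than once there, and by distinct partners 7 of 22 were promoter anchors, beside 8 of 24 for Klf5, 10 of 31 for Klf10 and 18 of 56 for Klf3. Its 2 anchors were joined to each other in all 4 lists, at 1.76, 0.633, 1.19 and 0.856, and they had 12 partners in common out of 15 and 19. The start of Otud7a, a deubiquitinase gene 184 kb downstream, was joined to both in all 4 lists, at 2.38, 1.54, 1.69 and 2.96 from the first anchor and 2.45, 1.58, 5.10 and 1.71 from the second. In the other direction the start of Trpm1, a cation channel gene of retinal bipolar cells, was joined to the second anchor at 217 kb in all 4 lists (2.74, 1.66, 1.79 and 3.17) and to the first with FOXA1 alone (1.55 and 1.69). Across its body Trpm1 held the partners of 7 distinct loops. The anchor chr7:63763883-63765626 at 174 kb downstream was joined to the first anchor in all 4 lists (1.30, 1.5, 1.68 and 1.61). The highest FOXA1 liver mets value was 3.46, in that list alone, from the first anchor to chr7:64359069-64361656 at 421 kb upstream over an exon of Fan1, and this was also the longest loop with a value of 2 or more. The highest FOXA1 tumour value was 3.32, from the second anchor to chr7:64248726-64251640 at 311 kb, in the body of Trpm1, which had 1.92 in HNF4G liver mets. The highest value at Klf13 in any list was 5.10, and none of its loops had a value of 2 or more in all 4 lists. Inside the Klf13 gene itself, 8 distinct loops ended, 3 of them in all 4 lists.

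The rest of the family was counted in the same way. Of 10 other KLF genes, 6 had an anchor (Klf1, Klf2, Klf9, Klf11, Klf12 and Klf16), with 70, 49, 48 and 37 loops in FOXA1 liver mets, FOXA1 tumour, HNF4G liver mets and HNF4G tumour. Klf16 had 36, 26, 24 and 18 of these. No loop ended at Klf8, Klf14, Klf15 or Klf17. Of 9 SP genes, 5 had an anchor, with 77, 70, 47 and 60 loops, of which Sp2 had 58, 56, 38 and 42. Among the other KLF genes with enough loops, 1 of 4 was 1.5-fold higher in FOXA1 liver mets than in FOXA1 tumour (Klf2, with 8 against 4 loops) and 0 of 3 passed with HNF4G. Between factors in tumour, by share of the list, 1 of 4 was higher with FOXA1 (Klf9, 9 against 3) and 2 were lower (Klf1, 7 against 8, and Klf2, 4 against 6), and in liver mets 0 of 4 passed. Of the SP genes, Sp3 was lower in liver mets with HNF4G (4 against 9) and lower with FOXA1 than with HNF4G in tumour (5 against 9), and Sp1 was higher with FOXA1 in liver mets (8 against 3). No loop joined any pair of the 7 member genes, which lie on different chromosomes while every listed loop stays within one.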

How the data were processed

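Loops were measured by Hi-ChIP for FOXA1 and HNF4G, with groups taken from the sample titles. The authors mapped reads to mm10 with HiC-Pro, given as version 3.1.0 in the submitters' processing notes, removed duplicates, assigned DpnII fragments and called loops with hichipper. The minimum of read pairs per loop and the way replicates were joined are not given in the sources used here. The value deposited by the authors for each loop was taken as a −log10 adjusted p, a unit read from its long runs of ties and its end at 20. The display score deposited by the authors followed from that value and was not used further. Depth was not analysed here, and the precision it sets is unknown.

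Annotated starts came from GENCODE M21 (GRCm38), and promoter sequences from RefSeq. Loops with the same anchor pair were called shared. Span was the distance between anchor midpoints. Analyses were run in Python 3.11.15 with numpy 2.4.6 and scipy 1.17.1, and the interval functions were tested on simulated data. Ratios of loop numbers were given exact Clopper-Pearson limits, conditional on their total, shares had Wilson intervals, loop numbers exact Poisson intervals, medians intervals from binomial order statistics, and ratios of ratios Woolf intervals. Genes with at least 10 loops in a pair of lists formed the background. Partners were named by rule, as loops in all 4 lists (the 5 with the highest median value where there were more), the highest value per list, the longest loop with a value of 2 or more, and coding starts joined in all 4 lists. Other partners named were chosen after their values were seen, as were the backgrounds of wide promoter anchors, of values of 2 or more, of promoter partners and of loops in lists of 1 factor or line alone, and the leaving out of each gene. The members and lists were chosen with earlier results of these data known.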

Additional observations from a re-analysis of the deposited data

How the results depend on the processing

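Of 76 values of the summary results under alternative settings (start windows, gene record ends, spans, a value of 2 or more, list size, widened anchors), 68 stayed within the interval of the reported value and 8 did not. No ratio whose interval excluded 1 changed direction. The liver mets to tumour ratios lay near 1 and crossed it, with FOXA1 to 0.870 when divided by list size and with HNF4G to 1.01 for spans of 20 to 1000 kb. Divided by list size, the FOXA1 to HNF4G ratio was 1.12 in tumour and 1.03 in liver mets. At a value of 2 or more, 10.9% of KLF loops were in all 4 lists and 50% in 1 list, and the share with a promoter partner was 19.6% in FOXA1 tumour and 16.1% in HNF4G liver mets. With widened anchors 40% of KLF loops were in all 4 lists and 17.1% in 1 list, without a background of all promoter loops under that rule. Fewer loops, or looser matching, are part of how these settings are built. Of 109 ratios of single genes, 7 moved past their interval, all at a value of 2 or more, where few loops were left. Ratios that crossed 1 numbered 12, each with an interval that included 1, among them the FOXA1 to HNF4G ratios of Klf10.

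No paired analysis was possible because each group had 1 loop list for both replicates, and leaving out a replicate was likewise not possible. Depth and the spread between cultures are unknown, both contexts are single cell lines, and the value's unit rests on the values alone.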
